A study of Danio rerio with 18 samples.

Results

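The genes fads2, elovl2 and elovl5 encode the desaturase and the elongases that build long-chain polyunsaturated fatty acids, and they were taken by name from the deposited transcript table of zebrafish larvae exposed to PFBS (perfluorobutanesulfonic acid, a short-chain perfluorinated surfactant). They made up 3 of the 32520 genes in the table and 8 of its 59876 transcripts, and the counts of each gene's transcripts were summed. All 3 passed the filter on low counts, as did 21046 genes in all. The genes were chosen because changes between PFBS and control were already known from these data, so their levels and fold changes are given as a description and carry no test.

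Whole-body RNA was sequenced from AB wild type larvae at 120 hours post fertilisation. There were 3 samples each at 7, 70, 700, 3500 and 7000 µM PFBS and 3 control samples, 18 in all. Larvae of all 6 groups shared strain and age, and the sources used here do not give the exposure window, the vehicle or how many larvae made a sample. Total counts ran from 14937147 to 19267232 per sample. Whether the 3 samples of a group are separate pools of larvae is not stated by the labels, so the p-values reflect a spread between samples that may be technical. In RNA from whole larvae, fewer cells of a type and less RNA per cell cannot be told apart.

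Vertebrates make long-chain polyunsaturated fatty acids from plant-type precursors by alternating desaturation and elongation in the endoplasmic reticulum, and the products are built into membrane phospholipids, above all in brain and retina, or are turned into signalling lipids. In zebrafish a single front-end desaturase, Fads2, inserts the double bonds at both of the positions that mammals divide between a pair of enzymes. Elovl5 adds carbon to the shorter polyunsaturated chains and Elovl2 to the longer ones, on the route to docosahexaenoic acid. In larval fish the yolk syncytial layer, liver, intestine and brain are known sites of this synthesis. In mammals, genes of the pathway are targets of the sterol regulatory element binding proteins (SREBPs) and of peroxisome proliferator-activated receptors (PPARs).

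fads2 (ENSDARG00000019532) lay on chromosome 25 from 4133488 to 4148719 on the minus strand, elovl2 (ENSDARG00000045414) on chromosome 24 from 8861272 to 8887825 on the minus strand, and elovl5 (ENSDARG00000004979) on chromosome 13 from 2394264 to 2417409 on the plus strand. These coordinates are those of the deposited table, for which the sources used here give no genome build. The genes were sparsely covered, with 89 to 455 counts per sample for fads2, 55 to 211 for elovl2 and 20 to 54 for elovl5. Levels below are CPM (read counts scaled to a common library total with TMM factors), and fold changes are log2 values with their standard error from a fit over all genes.

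The desaturase fads2 stood at 14.5, 14.0 and 11.2 CPM at 7 µM, at 23.2, 16.2 and 15.1 CPM at 70 µM and at 24.8, 19.0 and 26.5 CPM at 700 µM. It stood at 21.7, 24.8 and 19.1 CPM at 3500 µM and at 14.7, 17.3 and 17.6 CPM at 7000 µM, against 8.85, 5.89 and 7.84 CPM in controls. Every exposed sample was above every control sample at each of the 5 concentrations. The means were 13.2 ± 1.77, 18.2 ± 4.37, 23.5 ± 3.95, 21.9 ± 2.82 and 16.5 ± 1.62 CPM from 7 to 7000 µM, against 7.52 ± 1.5 CPM in controls (SD, n = 3 each). The log2 fold changes over control were 0.80 ± 0.19, 1.26 ± 0.18, 1.63 ± 0.18, 1.53 ± 0.18 and 1.13 ± 0.19 (SE) in the same order, which is 1.75-fold at 7 µM and 3.10-fold at 700 µM. The level was thus highest in the middle of the concentration range.

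The elongase elovl2 stood at 7.96, 7.32 and 7.57 CPM at 7 µM, at 12.3, 6.80 and 7.35 CPM at 70 µM and at 9.31, 10.3 and 12.3 CPM at 700 µM. It stood at 8.64, 9.27 and 8.69 CPM at 3500 µM and at 8.50, 7.94 and 7.29 CPM at 7000 µM, against 3.43, 4.1 and 3.24 CPM in controls. As for fads2, no exposed sample of any concentration reached down into the control range, and the lowest exposed group mean, 7.61 ± 0.32 CPM at 7 µM, compared with 3.59 ± 0.45 CPM in controls (SD, n = 3 each). The log2 fold changes were 1.09 ± 0.19, 1.29 ± 0.19, 1.57 ± 0.19, 1.31 ± 0.19 and 1.14 ± 0.19 (SE) from 7 to 7000 µM. At 7 µM, the lowest concentration, elovl2 was already 2.12-fold higher, and at 700 µM it was 2.97-fold higher.

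The elongase elovl5 stood at 2.24, 1.71 and 2.99 CPM at 7 µM, at 2.04, 1.11 and 1.70 CPM at 70 µM and at 1.86, 2.39 and 3.15 CPM at 700 µM. It stood at 1.44, 1.82 and 1.68 CPM at 3500 µM and at 1.86, 2.54 and 1.74 CPM at 7000 µM, against 1.88, 1.46 and 1.47 CPM in controls. The exposed and control samples overlapped at every concentration. Its log2 fold changes were 0.52 ± 0.27, -0.001 ± 0.28, 0.62 ± 0.27, 0.03 ± 0.29 and 0.34 ± 0.28 (SE) from 7 to 7000 µM, with no order along the concentrations.

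**Figure D1:**
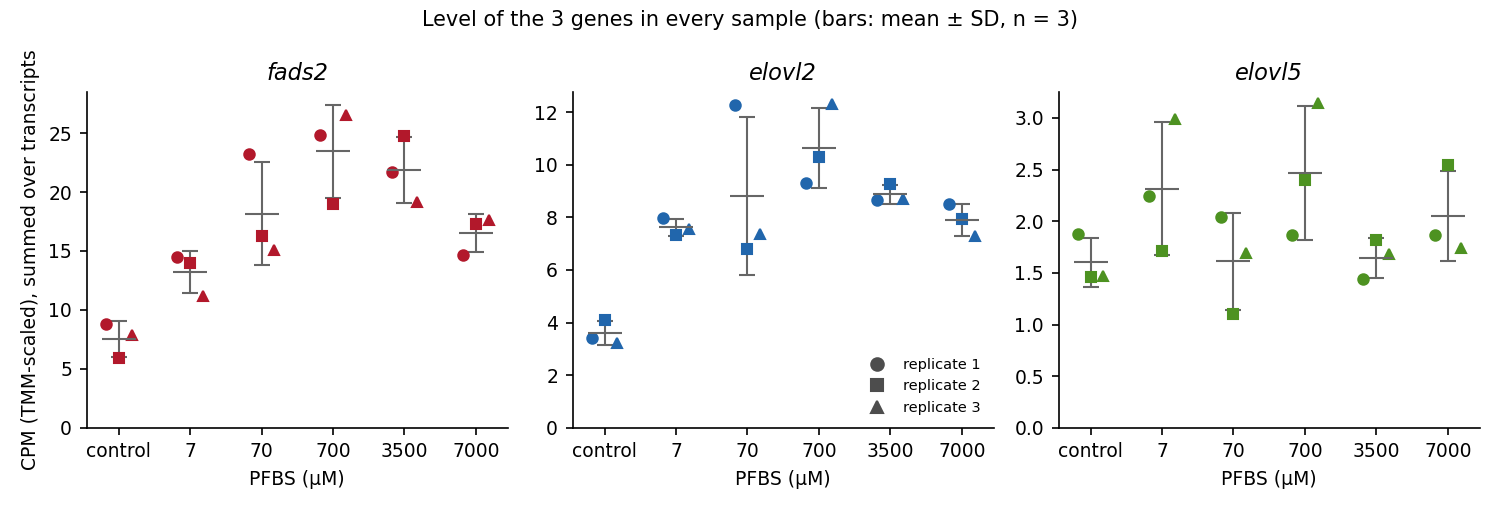
CPM of fads2, elovl2 and elovl5 in each of the 18 samples, by PFBS concentration in µM with controls at the left; points are samples, marked by replicate number, and bars are the mean ± SD of 3 samples. For fads2 and elovl2 every exposed sample lies above the 3 control samples, and for elovl5 the exposed samples overlap them at each concentration.

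In total, 2 of the 3 genes, fads2 and elovl2, lay above the controls in all samples at each concentration. Among all 21046 genes tested, every exposed sample was above every control sample for 7.18%, 9.27%, 15.1%, 16.2% and 20.6% from 7 to 7000 µM, and below every control sample for 5.33%, 8.58%, 14.3%, 13.5% and 22.2%. Since the genes were chosen from these contrasts, nothing is read from this count. Ranked by log2 fold change among the 21046 genes, fads2 was in places 224, 55, 21, 79 and 236 from 7 to 7000 µM. The places of elovl2 were 83, 47, 28, 124 and 223. The places of both genes were nearest the top at 700 µM. A place also depends on how far other genes moved. elovl2 was in place 83 at 7 µM and 223 at 7000 µM, with log2 fold changes of 1.09 and 1.14. As the genes were chosen from these contrasts, nothing is read from the places either. The 5 comparisons share their 3 control samples.

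**Figure D2:**
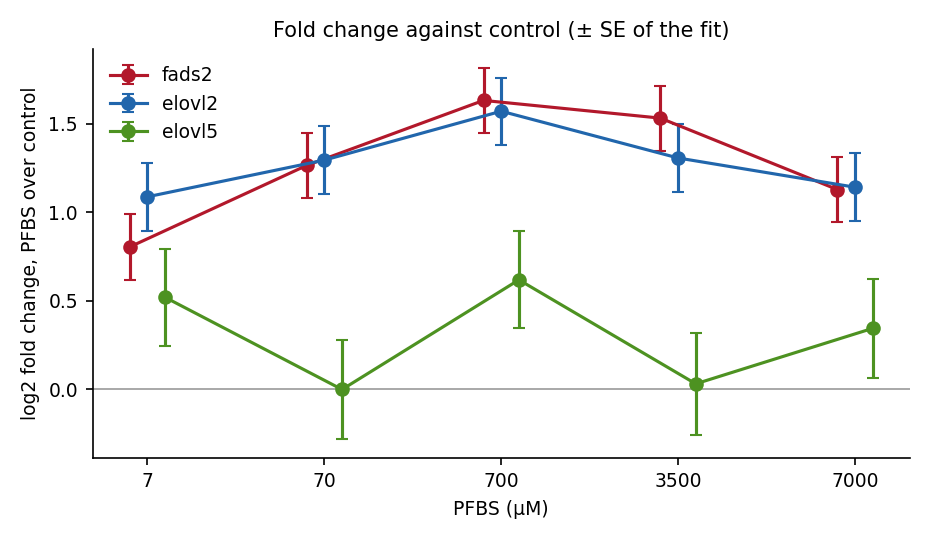
Log2 fold change of fads2, elovl2 and elovl5 over control at each PFBS concentration in µM; points are estimates of the fit over all 18 samples and bars are ± SE. The curves of fads2 and elovl2 both peak at 700 µM, at 1.63 and 1.57, while elovl5 stays between -0.001 and 0.62.

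Ordered by group mean, fads2 ran from 700 µM through 3500, 70, 7000 and 7 µM down to the controls. Neighbours in that order overlapped except for the last steps, where 7000 µM lay wholly above 7 µM and 7 µM wholly above the controls. Between successive concentrations, fads2 at 70 µM lay above 7 µM in all samples (log2 fold change 0.46 ± 0.18, SE), a pattern found for 6.03% of all genes, with the opposite pattern for 4.74%. It overlapped between 700 and 70 µM (0.37 ± 0.17), where 4.28% of all genes lay wholly above and 4.39% wholly below, and between 3500 and 700 µM (-0.10 ± 0.17). At 7000 µM it was below 3500 µM in all samples (-0.40 ± 0.17), as were 13.5% of all genes.

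For elovl2 the order of means was 700, 3500, 70, 7000 and 7 µM and then controls. The 700 µM samples lay wholly above the 3500 µM samples and the 7 µM samples wholly above the controls, and the neighbours between them overlapped. At 3500 µM elovl2 was below 700 µM in all samples (log2 fold change -0.26 ± 0.18, SE), as were 10.6% of all genes, and at 7000 µM below 3500 µM (-0.17 ± 0.18). Between 70 and 7 µM its samples overlapped at 0.21 ± 0.18 (SE), which was -0.10 without 70 µM replicate 1. The level at 7000 µM, 7.91 ± 0.61 CPM, overlapped that at 7 µM, 7.61 ± 0.32 CPM (SD, n = 3 each). For elovl5 every pair of neighbours in the order of means overlapped, and of its 10 pairs of exposed groups only 3500 against 700 µM did not (-0.59 ± 0.28).

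Within the 70 µM group, replicate 1 had the highest level of all 3 genes, with elovl2 at 12.3 CPM against 6.80 and 7.35 CPM in the other samples of that group. Without it the log2 fold change at 70 µM was 1.05 for fads2 and 0.98 for elovl2. The same sample had the highest summed level of 10 intestinal marker genes of the whole set, 1697 CPM. The other 70 µM samples had 835 and 769 CPM and the controls 691 to 785 CPM. Its exocrine pancreas sum, 458 CPM, was also the highest of the set, against 20.3 and 90.4 CPM in its group. Its liver sum and its retina and lens sum were the highest of its group. Its muscle, epidermal, neuronal, radial glia and blood sums were not. At 7 µM the summed intestinal level was 901 to 1196 CPM and at 700 µM it was 942 to 1224 CPM. It was 963 to 1251 CPM at 3500 µM and 695 to 826 CPM at 7000 µM. It was above the controls in all samples at 7, 700 and 3500 µM, and overlapped them at 70 and 7000 µM. The median log2 fold change of the 10 intestinal genes was 0.68, 0.81, 0.62, 0.58 and 0.03 from 7 to 7000 µM. By edgeR's quasi-likelihood test 2 of the 10 intestinal genes were higher and 0 lower at 3500 µM, where 5.14% of all genes were higher and 4.33% lower. At 7000 µM 1 was higher and 2 were lower, where 12.7% of all genes were higher and 12.3% lower.

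The 13 liver markers summed to 834 to 1152, 596 to 1001, 362 to 861, 430 to 566 and 313 to 542 CPM from 7 to 7000 µM, against 519 to 836 CPM in controls. Of these liver genes 7 fell and 0 rose at 3500 µM, where 4.33% of all genes fell. At 7000 µM 3 fell and 0 rose, where 12.3% of all genes fell and 12.7% rose. The 8 epidermal markers summed to 8994 to 13708, 5866 to 11424, 4367 to 9188, 10310 to 11162 and 1860 to 6598 CPM from 7 to 7000 µM, against 12154 to 14828 CPM in controls, and lay below all controls from 70 µM upwards. All 8 fell at 7000 µM and 1 fell at 700 µM, where 1.93% of all genes fell. The 13 skeletal muscle markers summed to 56774 to 76967, 43238 to 75974, 46854 to 59989, 68753 to 85266 and 15291 to 44479 CPM in the same order, against 72448 to 77685 CPM in controls, and lay below all controls at 700 and 7000 µM. Of these 10 fell at 7000 µM. The 8 retina and lens markers summed to 9458 to 10769, 10184 to 13178, 12425 to 15230, 10684 to 12341 and 13546 to 17160 CPM, against 8647 to 9645 CPM in controls. These markers overlapped the controls at 7 µM and lay above them from 70 µM upwards. Of these 3 rose at 700 µM, where 1.27% of all genes rose, 3 at 3500 µM and 7 at 7000 µM. The 10 neuronal markers summed to 3072 to 3592, 3297 to 4050, 3522 to 3880, 3240 to 3633 and 3668 to 4327 CPM, against 2993 to 3447 CPM in controls, and lay above all controls at 700 and 7000 µM. Of these 1 fell at 3500 µM and 5 rose at 7000 µM. The 7 radial glia markers summed to 2008.7 to 2411.1, 2268 to 2668.5, 2470.2 to 2623.9, 2477.6 to 2673.8 and 2422.5 to 2826.1 CPM from 7 to 7000 µM. In controls they summed to 2080 to 2325.6 CPM, and they lay above all controls from 700 µM upwards. Of these 3 rose and 0 fell at 3500 µM, where 5.14% of all genes rose, and 2 rose and 1 fell at 7000 µM. At 7000 µM, of 6 blood markers 3 fell. Of 8 exocrine pancreas markers 0 passed there, with sums of 118 to 246 CPM against 58.9 to 183 CPM in controls. No gene of these lists was at 0 in all 18 samples. The part of tissue make-up in the levels of fads2, elovl2 and elovl5 was not tested.

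On the TPM scale, which divides by transcript length and so allows levels of different genes to be compared, fads2 was the most abundant of the 3. It averaged 11.3 ± 1.37, 15.7 ± 4.38, 19.6 ± 3.53, 15.8 ± 3.23 and 13.3 ± 1.83 TPM from 7 to 7000 µM, against 6.40 ± 1.30 TPM in controls. elovl2 averaged 2.56 ± 0.13, 2.98 ± 1.14, 3.43 ± 0.48, 2.5 ± 0.31 and 2.51 ± 0.11 TPM, against 1.18 ± 0.18 TPM in controls (SD, n = 3 each throughout). The ratio of fads2 to elovl2 overlapped the controls in every exposed group. It averaged 4.43 ± 0.60, 5.39 ± 0.71, 5.76 ± 1.08, 6.28 ± 0.57 and 5.33 ± 0.88 from 7 to 7000 µM, against 5.58 ± 1.69 in controls. Between 7 and 3500 µM this ratio did not overlap, at 3.75 to 4.88 against 5.66 to 6.79. The ratio of elovl2 to elovl5 was 1.69 ± 0.28, 2.51 ± 0.56, 2.15 ± 0.46, 2.68 ± 0.28 and 1.82 ± 0.38 from 7 to 7000 µM, against 1.25 ± 0.28 in controls. These ratios were lowest in controls, and at 70, 700 and 3500 µM they did not overlap the control samples.

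Among the 12 elongases of the table, ordered by mean TPM, elovl2 and elovl5 were the least abundant in controls, in places 11 and 12. elovl2 was in place 7 at 70, 700 and 7000 µM and in place 10 at 7 and 3500 µM, and elovl5 was in place 10 or 12 in every exposed group. The most abundant was elovl4b, an elongase of very-long-chain fatty acids, at 57.4 ± 14.7 TPM at 7000 µM against 36.5 ± 2.25 TPM in controls (SD, n = 3 each). elovl2 and elovl5 were thus a small part of the elongase RNA of the whole larva in every group.

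The 3 annotated fads2 transcripts, all protein coding, did not follow the gene's sum alike. fads2-201 held 3560 of the gene's counts over all samples, fads2-202 held 793 and fads2-203 held 827. The share of fads2-201 was 74.5 ± 5.56%, 75.7 ± 21.5%, 53.5 ± 11.8%, 69.4 ± 9.93% and 85.9 ± 14.9% from 7 to 7000 µM, against 48.6 ± 23.4% in controls (SD, n = 3 each). The share varied widely within groups, and in the controls it was 31.5%, 75.3% and 39.1%. The exposed samples overlapped the controls in this share at every concentration.

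fads2-203 had 404 counts over the 3 samples at 700 µM, a share of 32.4 ± 11.4%, and 137 counts in the 3 control samples, a share of 30.4 ± 26.6% (SD, n = 3 each). It had a count of 0 in 8 of the 18 samples, among them all 3 at 7000 µM, where 0 of 852 fads2 counts allows a share of up to 0.352% by counting error alone. fads2-202 was at 0 in 2 samples, which were 70 µM replicate 1 and 7000 µM replicate 3. In those samples all fads2 counts, 387 and 314, were given to fads2-201. The transcripts overlap along most of their length and the counting program is not given, so how reads were divided among them is uncertain, while the sum over them is less so. Taken alone, fads2-201 had log2 fold changes of 1.51, 2.05, 1.83, 2.15 and 2.05 from 7 to 7000 µM, above those of the summed gene at all 5 concentrations and with no peak at 700 µM.

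**Figure D3:**
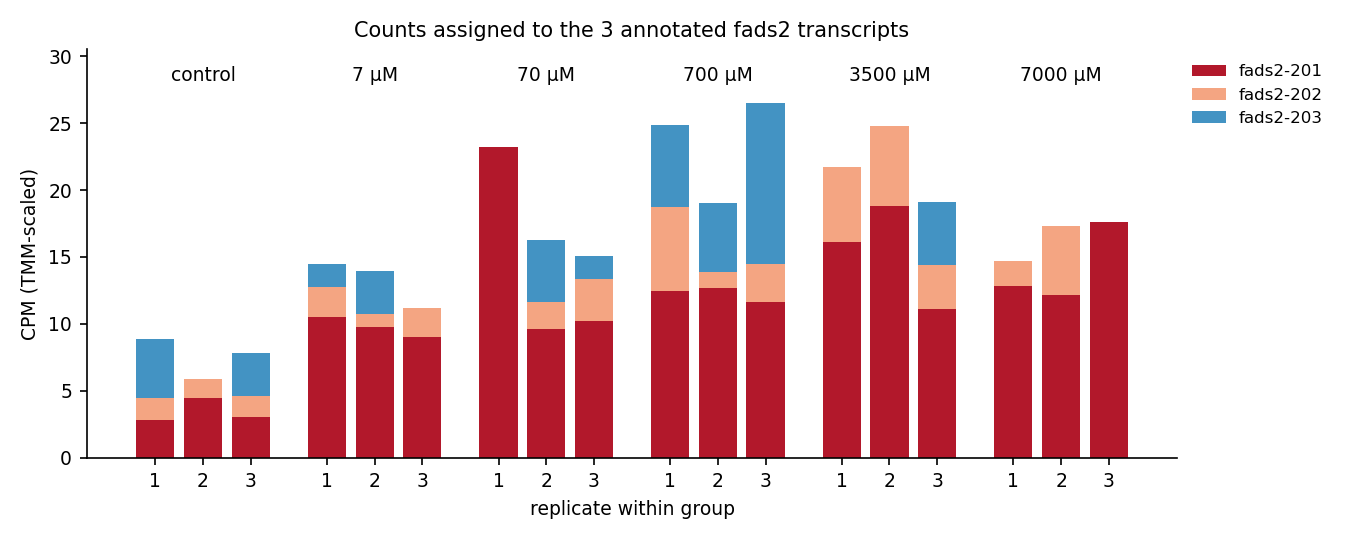
CPM of the 3 annotated fads2 transcripts stacked for each of the 18 samples, grouped by PFBS concentration; each bar is 1 sample and its height is the gene's level. fads2-203 is most abundant at 700 µM, with 404 counts in 3 samples, and is at 0 in all 3 samples at 7000 µM, and 2 bars consist of fads2-201 alone.

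elovl2 had 1 annotated transcript. Of the 4 elovl5 transcripts, elovl5-201 held 581 counts, the retained-intron transcript elovl5-202 held 18, elovl5-204 held 7 and elovl5-203 was at 0 in all 18 samples. In counts, the leading transcript and the gene were thus nearly the same measurement for elovl5. Its TPM followed the counts less closely. At 7 µM replicate 1 was at 2.24 CPM and 1.37 TPM, and replicate 2 at 1.71 CPM and 1.39 TPM.

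Across the 18 samples the log2 CPM of fads2 and elovl2 had a Pearson correlation of 0.89, which was 0.73 over the 15 exposed samples and 0.35 after subtracting group means. elovl2 and elovl5 had 0.45 and fads2 and elovl5 0.26 over the 18 samples, and 0.57 and 0.23 after subtracting group means. These values describe samples that share their concentration, depth and scaling, and no test was made of them. The likeness of fads2 and elovl2 thus lay more between groups than between samples of a group.

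Among 13442 other genes with a symbol and a mean of at least 5 CPM, the 5 whose log2 CPM was most like that of fads2 were abcf2a (an ABC family protein, r = 0.93), copg2 (a subunit of the COPI vesicle coat, 0.91), dusp5 (a phosphatase of MAP kinases, 0.91), guca1c (a guanylate cyclase activator of photoreceptors, 0.90) and si:ch73-141c7.1 (0.88). For elovl2 they were si:ch73-141c7.1 (0.92), si:zfos-943e10.1 (0.89), the lanosterol demethylase cyp51 (0.88), the sterol dehydrogenase nsdhl (0.87) and the sterol methyl oxidase msmo1 (0.86). One gene, si:ch73-141c7.1, was on both lists. After subtracting group means the correlations with fads2 were 0.77, 0.78, 0.56, 0.54 and 0.50, and those with elovl2 were 0.66, 0.42, 0.47, 0.34 and 0.31. Among the genes most like elovl5 were tpm4b (a tropomyosin), baiap2a, crybb1l3 (a lens crystallin) and ror1 (a receptor tyrosine kinase), with lower values of 0.62 to 0.67.

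**Figure D4:**
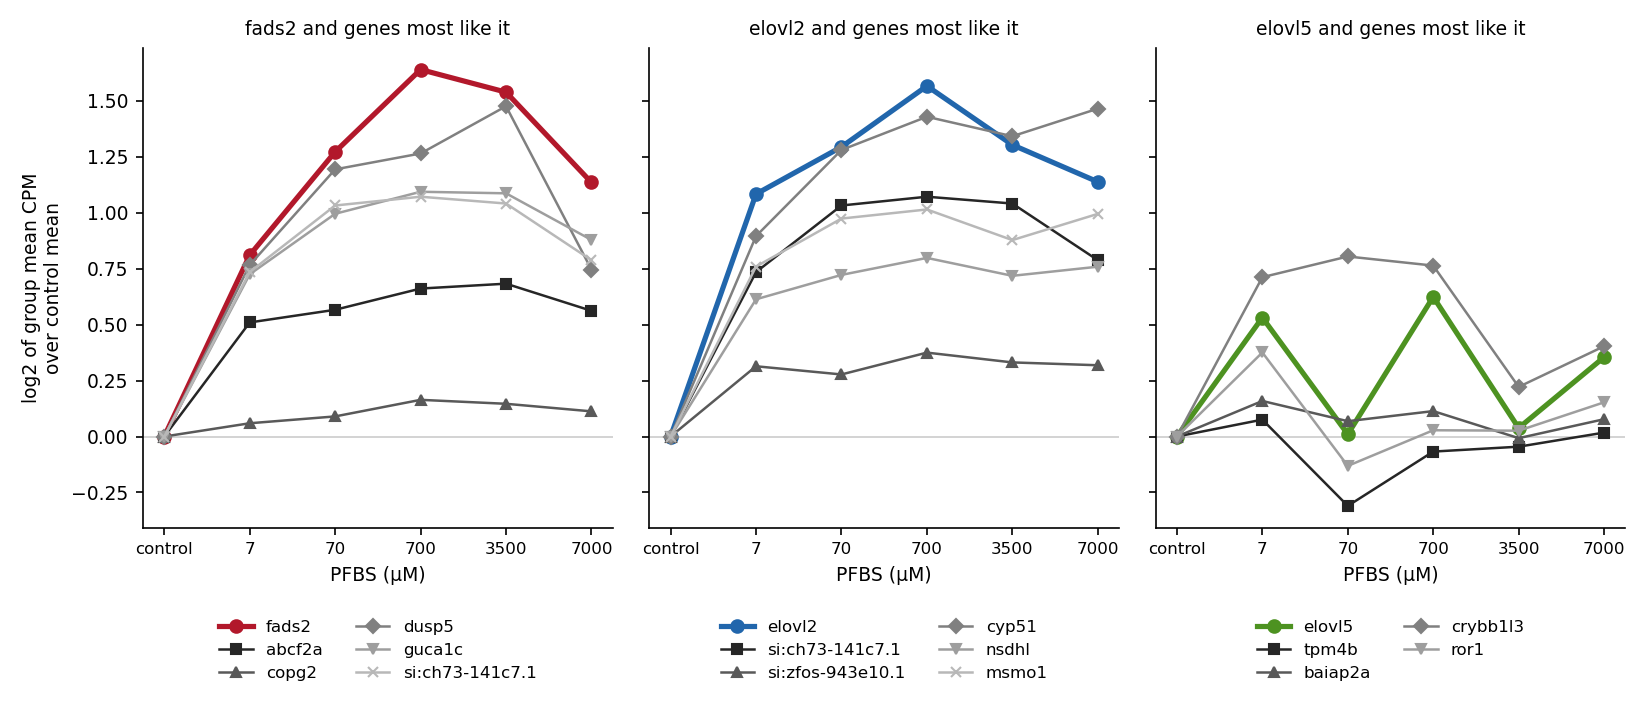
Group mean CPM relative to the control mean, on a log2 scale, for each of fads2, elovl2 and elovl5 (coloured) and genes among the 5 whose log2 CPM correlated best with it over the 18 samples (grey), by PFBS concentration in µM. The genes most like fads2 and elovl2 are above 0 at every concentration but differ in size, with dusp5 at 49.9 CPM at 3500 µM against 17.9 CPM in controls and copg2 at 73.0 CPM at 3500 µM against 65.9 CPM in controls. Since the genes were picked by correlation over these samples, a shared direction follows from that choice.

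The genes around the 3 enzymes were then counted, in 8 lists that hold 113 other genes of the pathway, of which 109 were in the table and 104 passed the filter. By edgeR's quasi-likelihood test with Benjamini-Hochberg adjustment over all 21046 genes, 1 list gene rose and 0 fell at 7 µM, where 0.0333% of all genes passed (0.0143% higher and 0.019% lower). At 70 µM 1 rose and 0 fell, where 0.28% passed (0.185% and 0.095%). At 700 µM 5 rose and 2 fell, 6.73% of the list genes against 3.2% of all genes (1.27% and 1.93%). At 3500 µM 14 rose and 5 fell, 18.3% against 9.47% (5.14% and 4.33%), and at 7000 µM 18 rose and 17 fell, 33.7% against 25% (12.7% and 12.3%). The median log2 fold change of the 104 genes was 0.08, 0.04, 0.07, 0.10 and -0.004 from 7 to 7000 µM, beside 0.005, 0.03, 0.01, 0.01 and -0.01 over all genes. The lists were chosen with earlier results of these data known, so a share above that of all genes may follow from that choice. The counts depended on single samples. At 70 µM there were 3 without 70 µM replicate 3 and 2 without 3500 µM replicate 2. At 700 µM there was 1 without control replicate 1, control replicate 2, 700 µM replicate 1 or 700 µM replicate 2, and there were 11 without 7000 µM replicate 3. At 3500 µM there were 8 without control replicate 1 or 2, 11 without control replicate 3 and 9 without 3500 µM replicate 1 or 3. At 7000 µM there were 15 without control replicate 1, 22 without control replicate 2 and 17 without 7000 µM replicate 3.

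Among 19 transcriptional regulators, insig1, the membrane protein that retains the SREBP escort Scap in the endoplasmic reticulum, rose at all 5 concentrations. It stood at 30.4, 31.7 and 27.7 CPM at 7 µM, at 35.6, 32.8 and 33.9 CPM at 70 µM, and at 34.2, 36.1 and 35.2 CPM at 700 µM. It stood at 34.6, 41.6 and 44.8 CPM at 3500 µM and at 36.1, 37.3 and 38.8 CPM at 7000 µM, against 19.6, 19.9 and 21.0 CPM in controls, and no exposed sample overlapped the controls. The log2 fold changes were 0.57 ± 0.09, 0.76 ± 0.09, 0.80 ± 0.09, 1.00 ± 0.09 and 0.89 ± 0.09 (SE; edgeR adjusted p = 0.038, 0.00115, 0.000271, 1.1e-05 and 1.44e-05). At 7 µM the call was lost with only the 6 samples compared (adjusted p = 0.067) and on leaving out any one of 10 samples, namely all 3 controls, 7 µM replicates 1 and 2, all 3 of the 700 µM samples and 7000 µM replicates 1 and 2, with edgeR adjusted p up to 0.274. At the other concentrations it held without any one of the 18. insig1 and elovl2 both stood above the controls in every sample at 7 µM, as did 7.18% of all genes. The log2 fold change of insig1 was highest at 3500 µM and that of elovl2 at 700 µM (1.57 ± 0.19, SE). A link between these genes was not tested.

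The transcripts of the SREBPs themselves did not pass the test at any concentration. srebf2, the factor of sterol synthesis, had log2 fold changes of 0.34 ± 0.12, 0.44 ± 0.12, 0.36 ± 0.12, 0.23 ± 0.12 and 0.29 ± 0.12 (SE) from 7 to 7000 µM, with edgeR adjusted p between 0.0779 and 0.641. srebf1, the factor of fatty acid synthesis, had -0.06, 0.04, -0.14, -0.46 and -0.35. Of the other regulators scap (-0.62 ± 0.17, adjusted p = 0.0332) and the retinoid X receptor rxrba (-0.48 ± 0.13, adjusted p = 0.0345) fell and its paralog rxrbb (0.27 ± 0.08, adjusted p = 0.0497) rose at 3500 µM by edgeR. At 7000 µM the adipocyte regulator pparg fell by 1.69 ± 0.37 (SE, edgeR adjusted p = 0.00395) and insig2 by 0.83 ± 0.24 (edgeR adjusted p = 0.02). There rxrbb rose by 0.46 ± 0.08 (edgeR adjusted p = 0.00125). The pparg change rests on few reads, at 0.524, 0.727 and 0.504 CPM at 7000 µM against 2.04, 2.51 and 1.18 CPM in controls. The total at 7000 µM was 3 higher and 2 lower, 26.3% of the 19 regulators against 25% of all genes. The calls of scap, rxrba and rxrbb at 3500 µM were each lost without some samples (5, 5 and 15 of 18), and that of insig2 without 2, while pparg and rxrbb at 7000 µM held without any one of them.

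Of the other 10 elongases none passed the test at 7 or 70 µM by edgeR, where 0 and 3 of them had an unadjusted p under 0.05. Positive log2 fold changes were found for 9 of the 10 at 7 µM, and for 4, 4, 7 and 3 at 70, 700, 3500 and 7000 µM. elovl4b, which makes the very-long-chain fatty acids of retina and skin, rose at 700 µM (0.64 ± 0.14, adjusted p = 0.0238) and at 7000 µM (0.69 ± 0.14, SE, edgeR adjusted p = 0.00261). At 7000 µM elovl6, which elongates saturated chains, rose by 0.50 ± 0.11 (adjusted p = 0.00393) and elovl8a rose by 0.53 ± 0.18 (adjusted p = 0.0444), while elovl6l fell by 1.93 ± 0.37 (adjusted p = 0.00181) and elovl7b by 1.71 ± 0.48 (edgeR adjusted p = 0.0163). elovl6l was at 1.63, 2.79 and 0.617 CPM at 7000 µM, against 7.35, 7.01 and 4.71 CPM in controls. It lay wholly below the controls there, as did 22.2% of all genes. elovl4a, the paralog of elovl4b, fell at 3500 µM (-0.41 ± 0.11, edgeR adjusted p = 0.0296) and not past the threshold elsewhere.

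Samples bore unevenly on these calls. Without 7000 µM replicate 3, which had the lowest muscle and epidermal sums (15291 and 1860 CPM), the log2 fold change of elovl6l was -1.53 and that of elovl7b -1.41. The call of elovl6l at 7000 µM held without any one sample, that of elovl7b was lost without 2 of the 18, that of elovl8a without 8 (adjusted p up to 0.252) and that of elovl4a at 3500 µM without 5. The call of elovl4b at 700 µM was lost without 4, with adjusted p up to 0.136, and at 7000 µM it held. The elongase counts rest on 10 genes, and the part of muscle and skin RNA in them was not tested.

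Elongation proceeds through a condensation by an Elovl protein, a reduction, a dehydration and a further reduction. Of 7 genes of the later steps, hsd17b12a, the first reductase, rose at 3500 µM (0.76 ± 0.11, adjusted p = 0.000681) and at 7000 µM (1.03 ± 0.11, SE, edgeR adjusted p = 2.53e-05). It stood at 38.1, 32.6 and 42.5 CPM at 7000 µM, against 17.7, 18.8 and 19.0 CPM in controls. Unlike fads2 and elovl2, hsd17b12a had its highest level at 7000 µM, and between 3500 and 700 µM it rose by 0.56 ± 0.11 (SE; edgeR adjusted p = 0.0218). At 7000 µM its paralog hsd17b12b rose by 0.37 ± 0.11 (adjusted p = 0.0256) and the dehydratase hacd2 by 0.34 ± 0.10 (adjusted p = 0.0203), whereas the dehydratase hacd1, which in mammals is a muscle isoform, fell by 1.03 ± 0.29 (adjusted p = 0.0159) and the last reductase tecrb by 0.33 ± 0.11 (edgeR adjusted p = 0.0364). The hsd17b12a calls held without any one sample; hacd1 was at -0.65 without 7000 µM replicate 3 and lost its call without 2 samples, hsd17b12b without 4 and hacd2 without 3.

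Of 10 other desaturases and their electron donors, cytochrome b5 gene cyb5a rose at 3500 µM (0.43 ± 0.12, edgeR adjusted p = 0.04), a call lost without 6 of the 18 samples. At 7000 µM 2 rose and 3 fell, where 12.7% of all genes rose and 12.3% fell. The sphingolipid desaturase degs2 fell by 0.67 ± 0.18 (adjusted p = 0.0135), the reductases cyb5r1 and cyb5r3 fell by 0.48 ± 0.13 and 0.43 ± 0.11 (adjusted p = 0.0138 and 0.0103) and cyb5r4 rose by 0.33 ± 0.12 (SE; edgeR adjusted p = 0.0454). Of these 4 calls only that of cyb5r3 held without any one sample. The stearoyl-CoA desaturase scdb also rose at 7000 µM, by 0.31 ± 0.09 (SE; edgeR adjusted p = 0.0246). Its paralog scd had log2 fold changes of 0.21 ± 0.40, 1.01 ± 0.38, 0.53 ± 0.39, 0.36 ± 0.40 and 0.33 ± 0.40 (SE) from 7 to 7000 µM, none past the threshold.

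The last step to docosahexaenoic acid shortens a longer chain in peroxisomes. Among 11 peroxisomal genes, the transporter abcd3a rose at 700 and 3500 µM by 0.43 ± 0.10 and 0.37 ± 0.10 (edgeR adjusted p = 0.0284 and 0.0277). acox3 fell at 7000 µM by 0.58 ± 0.19 (edgeR adjusted p = 0.0335). The calls of abcd3a were lost without 6 samples at 700 µM and without 4 at 3500 µM, and that of acox3 without 4. Of the 11 genes 18.2% passed at each of 700, 3500 and 7000 µM, where 3.2%, 9.47% and 25% of all genes passed. At 7 µM none of the 11 passed by edgeR, with 1 at an unadjusted p under 0.05. All 11 had positive log2 fold changes there, with a median of 0.20 beside 0.005 over all genes. At 70, 700, 3500 and 7000 µM 8, 9, 6 and 5 of the 11 were positive, so the common sign was not kept.

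**Figure D5:**
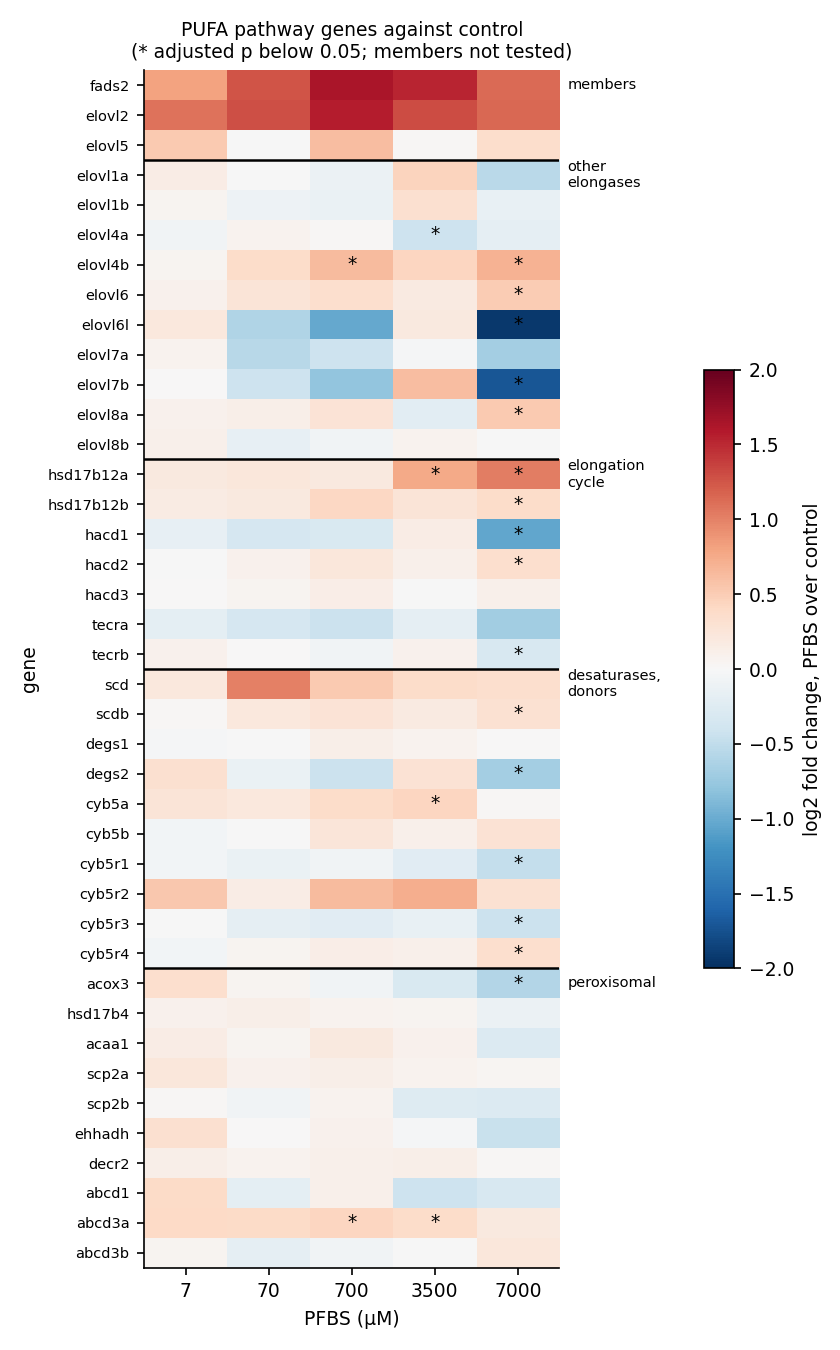
Log2 fold change over control, as colour from -2 to 2, of fads2, elovl2 and elovl5 and of genes in 4 of the lists, by PFBS concentration in µM; asterisks mark an edgeR adjusted p below 0.05, which is not given for the 3 named enzymes. The top rows of fads2 and elovl2 are red throughout, while the called elongases, elongation-cycle genes and desaturases of 7000 µM go both ways.

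Of 11 genes of fatty acid uptake and transport, 3 rose and 2 fell at 3500 µM, where 5.14% of all genes rose and 4.33% fell. At 3500 µM mfsd2ab, a gene of the Mfsd2a lysophospholipid carrier that brings docosahexaenoic acid into the brain, rose by 0.73 ± 0.13 (edgeR adjusted p = 0.00371). The fatty acid binding protein fabp3 rose by 0.53 ± 0.10 (edgeR adjusted p = 0.00538). The transport proteins slc27a4 and slc27a6 fell there by 0.98 ± 0.20 and 1.01 ± 0.31 (SE, edgeR adjusted p = 0.00723 and 0.0467). At 7000 µM slc27a6 fell by 1.29 ± 0.31 and slc27a4 by 0.54 ± 0.19 (edgeR adjusted p = 0.00757 and 0.0492), and fabp3 and fabp11a rose by 0.29 ± 0.10 and 0.27 ± 0.09 (edgeR adjusted p = 0.0457 and 0.0369). The calls of mfsd2ab, fabp3 and slc27a4 at 3500 µM and of slc27a6 at 7000 µM held without any one sample. Those of slc27a6 at 3500 µM and of slc27a4 and fabp3 at 7000 µM were each lost without 13 of the 18 samples. That of fabp11a was lost without 6. The falls of slc27a6 rest on few reads, at 1.05, 0.909 and 0.617 CPM at 7000 µM against 2.47, 2.25 and 1.59 CPM in controls.

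Of 17 genes that activate fatty acids or place them in phospholipids, the acyltransferases lpcat3 and agpat2 rose at 3500 µM by 0.32 ± 0.09 and 0.30 ± 0.08 (edgeR adjusted p = 0.0347 and 0.0275), and lpcat4 fell at 700 µM by 0.72 ± 0.19 (adjusted p = 0.0474). At 7000 µM mboat2b rose by 0.61 ± 0.11 (adjusted p = 0.00116) and agpat2 by 0.28 ± 0.08 (adjusted p = 0.0155), while the acyl-CoA synthetase acsl5 fell by 0.85 ± 0.30 (adjusted p = 0.0456) and lpcat4 by 0.63 ± 0.19 (SE; edgeR adjusted p = 0.0236). Only the mboat2b call held without any one sample, and those of lpcat4 at 700 µM and acsl5 were lost without 13 of 18. The calls made up 5.88%, 11.8% and 23.5% of the 17 genes at 700, 3500 and 7000 µM. Among all genes 3.2%, 9.47% and 25% passed there, so nothing is read from the number of calls in this list.

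Of 19 genes that release or oxygenate polyunsaturated fatty acids, ptges3a, a co-chaperone also known as cytosolic prostaglandin E synthase, rose at 700, 3500 and 7000 µM by 0.45 ± 0.09, 0.54 ± 0.09 and 0.80 ± 0.09 (SE; edgeR adjusted p = 0.02, 0.00284 and 4.36e-05). The cyclooxygenase ptgs2b rose at 3500 µM by 1.32 ± 0.22 (edgeR adjusted p = 0.00177) and was at 0.28 ± 0.22 at 7000 µM, where it did not pass. From 3500 to 7000 µM it fell by 1.04 ± 0.21 (edgeR adjusted p = 0.0103). At 3500 µM ptgdsb.1, a prostaglandin D synthase gene, rose by 0.57 ± 0.16 (edgeR adjusted p = 0.0316). The lipoxygenase alox12 fell at 700 µM by 0.60 ± 0.12 (edgeR adjusted p = 0.0159). At 7000 µM the phospholipase pla2g3 rose by 2.33 ± 0.53 (SE; edgeR adjusted p = 0.00511). There alox5a, which starts leukotriene synthesis, fell by 2.18 ± 0.66 (adjusted p = 0.0237) and pla2g4aa by 0.88 ± 0.28 (SE; edgeR adjusted p = 0.0306). The changes of pla2g3, alox5a and pla2g4aa rest on few reads. pla2g4aa was at 1.05, 1.03 and 0.841 CPM at 7000 µM against 2.36, 1.59 and 1.41 CPM in controls. Control replicates 1 to 3 held only 0.268, 0.265 and 0.295 CPM of pla2g3. Of alox5a they held 1.18, 1.125 and 0.412 CPM, and 7000 µM replicate 1 held 0.116 CPM. With DESeq2 in place of edgeR the alox5a call was not kept. The calls of ptgs2b, pla2g3 and ptges3a held without any one sample, except ptges3a at 700 µM, which was lost without 4. Those of alox12 and alox5a were each lost without 4 samples, that of ptgdsb.1 without 5 and that of pla2g4aa without 3. In this list 1 gene rose and 1 fell at 700 µM, 10.5% against 3.2% of all genes. At 3500 µM 3 rose and 0 fell, 15.8% against 9.47%, and at 7000 µM 2 rose and 3 fell, 26.3% against 25%.

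Between neighbouring concentrations, by edgeR, 0 of the 104 genes passed for 70 against 7 µM and 0 for 700 against 70 µM, with 15 and 3 of them at an unadjusted p under 0.05. Of all genes 0% passed in both comparisons, with 1412 and 780 at an unadjusted p under 0.05. For 3500 against 700 µM 4 rose and 1 fell, 4.81% against 1.66% of all genes (1.14% higher and 0.527% lower). For 7000 against 3500 µM 1 rose and 9 fell, 9.62% against 6.28% of all genes (2.44% and 3.84%), the largest falls being those of elovl7b (-2.33 ± 0.46, adjusted p = 0.00873) and elovl6l (-2.12 ± 0.37, SE, edgeR adjusted p = 0.00471).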

How the data were processed

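The deposited file lists annotated transcripts with whole-number read counts, per the file headers, and beside them the RPKM and TPM values that the authors computed; the RPKM values were not used. RNA was extracted with RNAzol, per the labels' protocols. The sources used here do not give the aligner, counting program, strand use, genome build or annotation. Counts were summed per gene, filtered with filterByExpr and scaled by TMM, and all 18 samples entered 1 fit of edgeR 4.0.16 (R 4.3.3, limma 3.58.1, the data.table package at 1.17.8) with a mean for each group. Contrasts were tested with the two-sided quasi-likelihood F test, adjusted by Benjamini-Hochberg over 21046 genes, threshold 0.05. The SE is the log2 fold change divided by the square root of F. Deposited TPM values were summed per gene and served for levels between genes and as an alternative, log2 of TPM plus 1. Likeness used log2 CPM with a prior count of 2.

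The 3 genes, the 8 pathway lists and the 9 marker lists were chosen with earlier results of these data known. From each list up to 4 called genes per comparison with controls, largest change first, were named, as were the 5 genes most like each of the 3; elovl6, tecrb, scdb, scd, srebf1 and srebf2 were named after their values were seen. Some genes that the rule names are not reported here. Of the list genes, hacd4, fads6, acsl6 and slc27a2b were not matched and slc27a1b, alox5b.1, alox5ap, ltc4s and mlxipl did not pass the filter. The script was tested on simulated data. No 2 samples within a group were as alike as sampling noise allows (chi-square per degree of freedom at least 5.50). 7000 µM replicate 3 stood apart, at 53.5 and 61.6 from replicates 1 and 2 of its group, which were at 6.65 from each other. Every other pair within a group was at 29.3 or below. The highest share allowed for a transcript with a count of 0 covers counting error only, while SD and SE include the spread between samples. Samples with the same replicate number did not deviate together, with correlations from -0.335 to 0.266 over 45 pairs, so the numbers were not taken to pair samples. Alternatives were DESeq2 1.42.0, its size factors, total counts as library size, no filter, a replicate block, the 6 samples compared alone, the leading transcript, TPM, and leaving out each sample.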

Additional observations from a re-analysis of the deposited data

How the results depend on the processing

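The log2 fold changes of fads2 and elovl2 over control were positive under all 26 alternatives at every concentration, and those of elovl5 at 70 µM ran from -0.20 to 0.21. With fads2-201 in place of the gene, fads2 was at 1.51, 2.05, 2.15 and 2.05 at 7, 70, 3500 and 7000 µM, and its steps reversed to -0.22 for 700 against 70 µM and 0.32 for 3500 against 700 µM, by the construction of that alternative, which leaves out fads2-202 and fads2-203. On the scale of log2 of TPM plus 1, which understates low genes, elovl2 was at 0.71, 0.84, 1.02, 0.68 and 0.69 from 7 to 7000 µM, its step from 3500 to 7000 µM reversed to 0.01, and fads2 was at 1.18 at 3500 µM.

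From 7 to 7000 µM, 7, 59, 674, 1994 and 5259 genes passed the threshold. DESeq2 gave 42, 211 and 1077 at 7, 70 and 700 µM. The replicate block gave 3, 37 and 441, and 0 pathway genes at 7 µM, where insig1 was at an edgeR adjusted p of 0.0648. Of 45 same-number pairs 13 had a correlation above 0.1. For 4 of 18 samples the mean correlation with samples of other groups was highest for their own number. With only the 6 samples compared there were 1902 at 700 µM, with 17 pathway genes in place of 7, and 0 pathway genes in place of 1 at 7 µM. The cause was not tested. Leaving out 1 sample gave 2 to 13, 8 to 289, 42 to 1302, 478 to 3333 and 2362 to 5701 genes in the same order, with the lowest counts without 7 µM replicate 1, 70 µM replicate 1, 700 µM replicate 1, control replicate 1 and 7000 µM replicate 3. For pathway genes the ranges were 0 to 1, 1 to 3, 1 to 11, 8 to 21 and 15 to 37. Leaving out 1 sample changed the sign of elovl5 at 70 and 3500 µM, both near 0, and of the step of elovl2 from 7 to 70 µM (-0.10 without 70 µM replicate 1), and of no other fold change of the 3 genes. Of 57 named pathway calls none reversed, 21 held without any one sample, 48 held under the replicate block, 53 under DESeq2 and 23 to 55 without 1 sample, fewest without control replicate 1.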

Other observations

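Over control, elovl2 had log2 fold changes of 1.14 ± 0.19 at 7000 µM and 1.09 ± 0.19 at 7 µM (SE). For fads2 the same values were 1.13 ± 0.19 at 7000 µM and 0.80 ± 0.19 at 7 µM (SE). The gene si:ch73-141c7.1, among the 5 most like each of them, stood at 19.3 ± 3.24 CPM at 7 µM and 20.1 ± 1.98 CPM at 7000 µM, against 11.6 ± 1.91 CPM in controls (SD, n = 3 each). It was picked for its likeness over these same samples, so a similar pattern follows from that choice.

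The elongase elovl7b stood at 3.19, 3.05 and 1.5 CPM at 3500 µM and at 0.466, 0.788 and 0.28 CPM at 7000 µM. Controls were at 1.88, 1.65 and 1.47 CPM. The samples at 7000 µM lay below the controls, as did those of 22.2% of all genes, and 2 of those at 3500 µM lay above them.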
